A study of Mus musculus with 48 samples.

Results

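Guanylate-binding proteins (GBPs) are large GTPases that interferons induce in macrophages. The 8 genes Gbp2, Gbp3, Gbp4, Gbp5, Gbp6, Gbp7, Gbp8 and Gbp9 were taken by symbol from the table of read counts, where each had 1 row, so the family made up 8 of 49568 genes. The study sequenced polyadenylated RNA of RAW264.7, a virus-transformed mouse macrophage line, after 72 h with PBS as vehicle, with a synthetic 15-mer peptide at 100 µg/ml, with mouse-active IFN-γ at 5 ng/ml, or with a peptide and IFN-γ together, the medium being changed at 48 h. The peptides LE, SE and PE carry residues 65 to 79 of the HLA-DR β chain of a lupus-linked, an arthritis-linked and a protective allele, which makes 8 groups (PBS, LE, SE, PE, IFN-γ, LE+IFN-γ, SE+IFN-γ and PE+IFN-γ). Each group had 3 libraries labelled with a letter and 3 labelled HLA with a number. The values below are from the 24 letter-labelled libraries unless the HLA-labelled ones are named. All groups share 1 cell line, and the peptides were free in the medium rather than part of a folded HLA-DR molecule.

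GBPs belong to the dynamin superfamily. They bind and hydrolyse GTP, assemble into oligomers and coat the vacuoles of intracellular parasites and bacteria or the bacteria themselves, which exposes microbial products to caspases and inflammasomes. IFN-γ acts through a receptor with the kinases JAK1 and JAK2. Promoters of genes that it induces often hold gamma-activated sites (GAS) or interferon-stimulated response elements (ISRE), and the induced factor IRF1 binds the latter. Mouse GBP genes lie in a cluster on chromosome 3 and another on chromosome 5. Gbp2 and Gbp5 encode proteins that end in a CaaX box, to which a prenyl lipid is attached for membrane binding.

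The promoters of the chromosome 3 members are shown because these genes all rose with IFN-γ but differed in how far a peptide moved them. RefSeq (GRCm38.p6) gave the 250 bases before the start site of 4 members, on the plus strand and written 5′ to 3′. Gbp4, Gbp6, Gbp8 and Gbp9 had no entry. The windows are chr3:142620413-142620662 for Gbp2, chr3:142559794-142560043 for Gbp3, chr3:142496684-142496933 for Gbp5 and chr3:142530086-142530335 for Gbp7. Capitals mark matches, on either strand, to the ISRE core GAAANNGAAA and to the GAS consensus TTCNNNGAA.
Gbp2: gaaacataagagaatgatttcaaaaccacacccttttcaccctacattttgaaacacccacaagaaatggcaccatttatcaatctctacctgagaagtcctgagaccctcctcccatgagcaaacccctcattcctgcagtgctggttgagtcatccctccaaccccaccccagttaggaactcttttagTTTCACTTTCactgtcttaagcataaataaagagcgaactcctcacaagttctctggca
Gbp3: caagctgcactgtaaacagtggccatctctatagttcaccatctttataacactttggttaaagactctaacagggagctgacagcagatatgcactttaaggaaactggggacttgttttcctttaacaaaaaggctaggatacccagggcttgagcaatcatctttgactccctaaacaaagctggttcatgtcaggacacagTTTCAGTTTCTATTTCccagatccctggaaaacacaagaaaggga
Gbp5: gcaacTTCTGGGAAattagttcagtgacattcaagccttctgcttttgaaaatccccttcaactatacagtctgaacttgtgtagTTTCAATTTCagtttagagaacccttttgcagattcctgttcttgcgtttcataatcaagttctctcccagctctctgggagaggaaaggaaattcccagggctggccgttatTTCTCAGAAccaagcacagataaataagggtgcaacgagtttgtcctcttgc
Gbp7: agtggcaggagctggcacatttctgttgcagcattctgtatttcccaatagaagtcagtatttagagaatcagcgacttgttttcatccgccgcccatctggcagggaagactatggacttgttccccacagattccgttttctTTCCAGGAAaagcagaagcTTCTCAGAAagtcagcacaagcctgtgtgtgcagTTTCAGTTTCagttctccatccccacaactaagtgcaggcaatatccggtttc
All 4 windows shown held the ISRE core, on the minus strand in each. Gbp3 had another start site in RefSeq, and the window of the same length before it (chr3:142560106-142560355, plus strand) held neither motif. The match ran from 59 to 50 bases upstream of the start in Gbp2, from 53 to 44 in Gbp7 and from 165 to 156 in Gbp5, and Gbp3 held a pair of overlapping matches between 45 and 30 bases upstream. Of 32851 RefSeq promoter windows of the same length, 2.98% held this core. The GAS consensus, which reads the same on both strands, matched at 2 places each in Gbp5 and Gbp7 and was not found in the windows of Gbp2 and Gbp3, against 7.02% of all windows with a match. Gbp5 (52 to 44 bases upstream) and Gbp7 (87 to 79 bases upstream) shared the match TTCTCAGAA. A match describes letters in this window and not a binding site.

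Each letter-labelled library held 16498562 to 26929356 counts in all, so 3 counts amounted to 0.111 to 0.182 CPM (a gene's count divided by the library's total and rescaled to a total common to all libraries). A set of 15 IFN-γ targets that are no GTPases separated the letter-labelled libraries by label, with a mean log2(CPM + 1) of 6.56 to 6.94 in the 12 libraries with IFN-γ and of 2.75 to 3.10 in the 12 without it. On the same measure, 12 of the 24 HLA-labelled libraries did not have the level that their label would give. All 10 macrophage markers were detected in every group, with a summed level of 6809 to 12442 CPM per library. The summed levels of T cell, B cell, fibroblast and epithelial markers did not pass 1.84 CPM in any library. Cd3e, a defining T cell marker, had at most 1 count in a library, and Cd8a had 0. The study describes its libraries as biological replicates from more than one experiment. The labels do not say which libraries shared a culture. The p-values below measure the spread among the 3 libraries of a group, pooled over the groups in a fit.

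Reads were counted only where they aligned uniquely, which bears on GBPs because their copies are alike. Of the 100-base windows of Gbp6 transcripts (GENCODE M21, GRCm38), 64.5% also occurred in another gene, among them Gbp10, Gbp11 and the overlapping gene model Gm43302, so the level of Gbp6 is uncertain. The share was 10.01% for Gbp7, 4.39% for Gbp8 and at most 1.65% for the other members, and Gbp2 shared no window.

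Without IFN-γ, Gbp8 (chromosome 5, 105014150 to 105139540, minus strand) was the only member at a clear level. Its levels in the PBS libraries were 27.8, 29.0 and 30.6 CPM, while no other member passed 1.52 CPM in any PBS library. Gbp8 made up 89.0% of the summed CPM of the 8 genes with PBS. Compared per length of exons, Gbp8 had 8.47 ± 0.414 CPM per kb (SD, n = 3) with PBS, followed by Gbp7 at 0.235 ± 0.0307 and Gbp2 at 0.224 ± 0.0388, and the ranges of neighbours in the order Gbp7, Gbp2, Gbp9 and Gbp3 overlapped. Gbp6 had 0 counts in all 3 PBS libraries and Gbp5 had 1 count in all.

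IFN-γ alone was compared with PBS to give the size of the cytokine response. All 8 members rose, where 9.79% of the 12242 genes tested were called higher (edgeR quasi-likelihood test, Benjamini-Hochberg adjusted p under 0.05 and a fold change over 1.5). Gbp3, Gbp4, Gbp5 and Gbp6 passed the filter on low counts only through the IFN-γ libraries, where they are high. Their calls are thus no independent support. The median log2 fold change was 6.77 over the members and -0.01 over all genes, and 5.30 with Gbp6 set at its bound. Because these are bulk samples, more RNA per cell and more cells that respond cannot be told apart.

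Gbp2 (chromosome 3, 142620602 to 142638008, plus strand), whose product guards against vacuolar parasites, had 0.676, 0.498 and 0.516 CPM in the PBS libraries and 157, 135 and 151 CPM with IFN-γ. This was a log2 change of 8.03 (SE 0.13, edgeR adjusted p 5.18e-12), or 262-fold with a 95% interval of 214 to 321. Gbp4 (chromosome 5, 105115767 to 105139586, minus strand) went from 0.211, 0.0906 and 0.141 CPM to 115, 121 and 105 CPM, a log2 change of 9.54 (SE 0.16, edgeR adjusted p 5.18e-12). In both genes the groups lay far apart, and the libraries of a group lay close together.

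Gbp5 (chromosome 3, 142493978 to 142522344), which has been tied to inflammasome assembly, had 1 count over the PBS libraries and 1087 with IFN-γ, at 15.1, 19.0 and 11.9 CPM. Scaled to library totals this is a ratio of 1041, with an exact 95% counting interval of 186 to 41147. Gbp6 had 59 counts with IFN-γ, at least 18.8-fold higher than a floor of 3 counts over the PBS group. For both genes the size of the rise is limited by how few reads the PBS libraries held.

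Gbp3 rose by a log2 change of 6.27 (SE 0.17, edgeR adjusted p 2.73e-10), from 0.489 ± 0.160 to 37.8 ± 2.16 CPM (SD, n = 3). Gbp9 rose by 4.33 (SE 0.18, edgeR adjusted p 8.17e-09), from 1.06 ± 0.268 to 21.1 ± 2.08 CPM. Gbp7, whose product has been tied to the phagocyte oxidase and autophagy, rose by 3.72 (SE 0.23, edgeR adjusted p 2.77e-07), from 1.52, 1.22 and 1.22 CPM to 17.7, 22.004 and 12.4 CPM. The spread of Gbp7 among the IFN-γ libraries was wide for its level, and the third library was the lowest.

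Gbp8 had the smallest rise of the 8, with a log2 change of 2.08 (SE 0.07, edgeR adjusted p 2.18e-09), from 29.2 ± 1.42 to 122 ± 2.82 CPM (SD, n = 3). It was the only member with a high level before IFN-γ, and its 3 IFN-γ libraries (125, 119 and 121 CPM) nearly coincided. With IFN-γ its share of the family fell from 89.0% to 25.6%, behind Gbp2 at 31.1% and just ahead of Gbp4 at 23.9%. Per length of exons, the order with IFN-γ was Gbp2 (58.8 ± 4.56 CPM per kb), Gbp8 (35.3 ± 0.818), Gbp4 (15.2 ± 1.06), Gbp3 (11.6 ± 0.660), Gbp9 (4.08 ± 0.401), Gbp7 (3.09 ± 0.861), Gbp5 (2.31 ± 0.535) and Gbp6 (0.141 ± 0.0126). The ranges of Gbp9 and Gbp7 and those of Gbp7 and Gbp5 overlapped, and no other neighbours did. The summed level of the 10 macrophage markers was 9865 to 10864 CPM with PBS and 7272 to 7925 CPM with IFN-γ, although 2 of the 10 were called higher and 0 lower, and its part in the result was not tested.

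**Figure D1:**
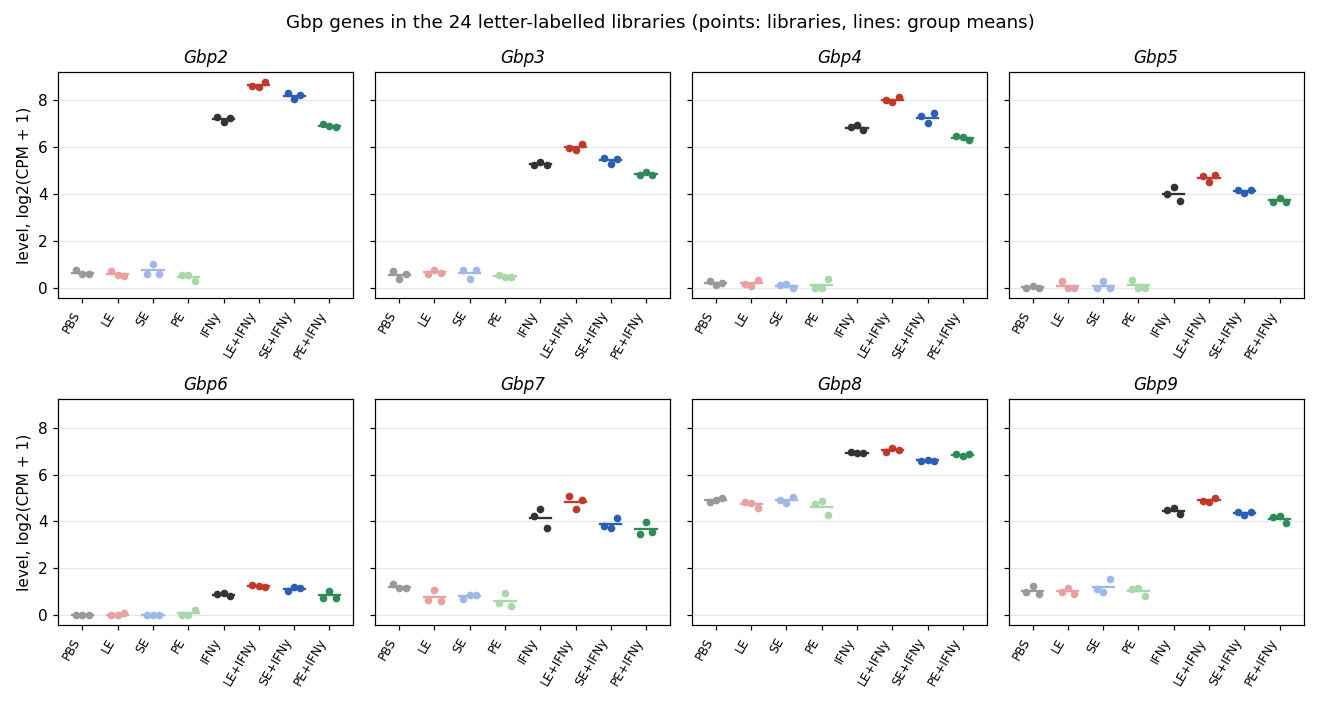
Levels of the 8 Gbp genes as log2(CPM + 1) in each letter-labelled library (points, 3 per group) with group means (lines), over the 8 groups. Gbp8 is the only gene at a clear level without IFN-γ, and all 8 genes are higher in each of the 12 libraries with IFN-γ than in any without it.

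**Figure D2:**
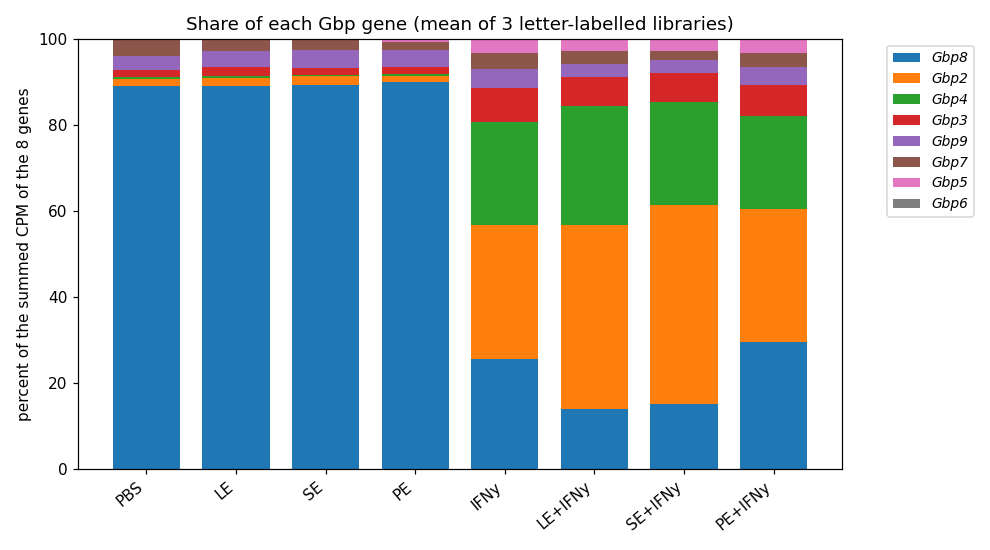
Mean share of each gene in the summed CPM of the 8 Gbp genes, in percent, for the 8 groups (3 letter-labelled libraries each). Gbp8 takes 89.0% with PBS and 25.6% with IFN-γ, where Gbp2 and Gbp4 take most of the rest.

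The peptides alone were compared with PBS to ask whether they moved these genes without the cytokine. Gbp2, Gbp3, Gbp7, Gbp8 and Gbp9 passed the filter on low counts, and Gbp4, Gbp5 and Gbp6 did not, with at most 6 counts in any of the 12 libraries. For LE, 0 of 5 were called, where 0.0242% of 12420 genes were, 0 had an unadjusted p under 0.05, and DESeq2 called 0. For SE, 0 of 5 were called (background 1.92%), 0 had an unadjusted p under 0.05, and DESeq2 called 0. For PE, 0 of 5 were called (background 3.13%), 1 had an unadjusted p under 0.05, and DESeq2 called 0. The medians over the 5 genes were -0.07, 0.29 and -0.19 for LE, SE and PE.

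Gbp7 was the member with the largest differences among these 5. Its PBS libraries had 1.52, 1.22 and 1.22 CPM, against 0.570, 1.12 and 0.536 with LE, 0.612, 0.819 and 0.821 with SE, and 0.421, 0.908 and 0.303 with PE. Every peptide library lay below every PBS library, at 36 counts or fewer. The log2 fold change with PE was -1.14 (SE 0.39, 95% interval -1.98 to -0.31, edgeR adjusted p 0.0517), just short of the threshold, and without PE replicate 2 it was -1.73 (edgeR adjusted p 0.0110) and passed. Gbp8, measured on 305 to 706 counts per library, had 95% intervals of the log2 difference from PBS of -0.40 to 0.12 with LE, -0.20 to 0.32 with SE and -0.46 to 0.07 with PE, so a change of 1.5-fold lay outside each of them.

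LE+IFN-γ was compared with IFN-γ alone (the study's Model A) to ask what the lupus-linked peptide added to the cytokine. Of the 8 members, 6 rose, 0 fell and 2 were not called, where 9.58% of 12720 genes were called higher. The median log2 fold change was 0.71 over the members and -0.01 over all genes. The summed level of the 8 genes went from 476 ± 15.8 to 946 ± 62.6 CPM (SD, n = 3).

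Gbp2 had the largest difference with LE. Its 3 libraries with IFN-γ had 157, 135 and 151 CPM and those with LE+IFN-γ had 395, 381 and 439 CPM. The groups did not overlap, and the log2 fold change was 1.47 (SE 0.08, 95% interval 1.31 to 1.63, edgeR adjusted p 1.12e-10).

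Gbp4 followed, with 115, 121 and 105 CPM against 257, 245 and 286 CPM and a log2 change of 1.22 (SE 0.09, edgeR adjusted p 4.77e-09). Every LE+IFN-γ library lay above every IFN-γ library. Gbp3 rose by 0.77 (SE 0.08, edgeR adjusted p 5.81e-07), from 36.6, 40.3 and 36.5 to 62.0, 58.7 and 70.5 CPM, again without overlap.

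Gbp5 rose by 0.72 (SE 0.12, edgeR adjusted p 8.27e-05), from 15.1, 19.0 and 11.9 to 26.0, 22.3 and 26.9 CPM. Gbp7 rose by 0.70 (SE 0.18, edgeR adjusted p 0.00312), from 17.7, 22.004 and 12.4 to 33.1, 21.9 and 29.2 CPM, and its groups overlapped at 1 library each. Gbp6 rose by 0.70 (SE 0.25, edgeR adjusted p 0.0261), on 16 to 37 counts per library. These 3 calls were the least stable. Without IFN-γ replicate 3, none of the 3 was called, at log2 fold changes of 0.58, 0.53 and 0.65, and 3 members were called in place of 6. Gbp7 was also lost without LE+IFN-γ replicate 1 (0.57), and Gbp6 when any of 5 of the 6 libraries was left out and with DESeq2 (adjusted p 0.0698), no filter on low counts (0.0733) or a single fit of all 8 groups (0.123).

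Gbp9 and Gbp8, both of the chromosome 5 cluster, were not called. Gbp9 differed by 0.47 (SE 0.09, edgeR adjusted p 0.000335), under the minimum of 1.5-fold, with 21.2, 23.1 and 19.0 CPM against 28.0, 27.5 and 31.1 CPM and no overlap. Gbp8 had 125, 119 and 121 CPM with IFN-γ and 122, 138 and 133 CPM with LE+IFN-γ, which overlapped. Its log2 difference was 0.12 (SE 0.06, 95% interval 0.00 to 0.24, edgeR adjusted p 0.0821), and its share of the family fell to 13.9% while that of Gbp2 reached 42.8%.

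In order of position the differences with LE were not uniform along either cluster. On chromosome 3, Gbp5, Gbp7 and Gbp3 lay between 0.70 and 0.77, and Gbp2, at the far end, at 1.47, with its neighbour Gbp2b, which is not one of the 8, at 1.65 (SE 0.08, edgeR adjusted p 1.12e-10). On chromosome 5, by lowest coordinate, Gbp8 (0.12) and Gbp9 (0.47) came before Gbp4 (1.22), Gbp10 (called higher, also not one of the 8) and Gbp6 (0.70). The annotated spans of Gbp8, Gbp9 and Gbp4 overlap on the minus strand and end at 105139540, 105139539 and 105139586. Gbp11, last in that order and not one of the 8, was not called. Among the 4 members whose promoters are shown, Gbp5 and Gbp7, with GAS matches, had 0.72 and 0.70, and Gbp3 and Gbp2, without, had 0.77 and 1.47, which is a description over 4 genes.

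**Figure D3:**
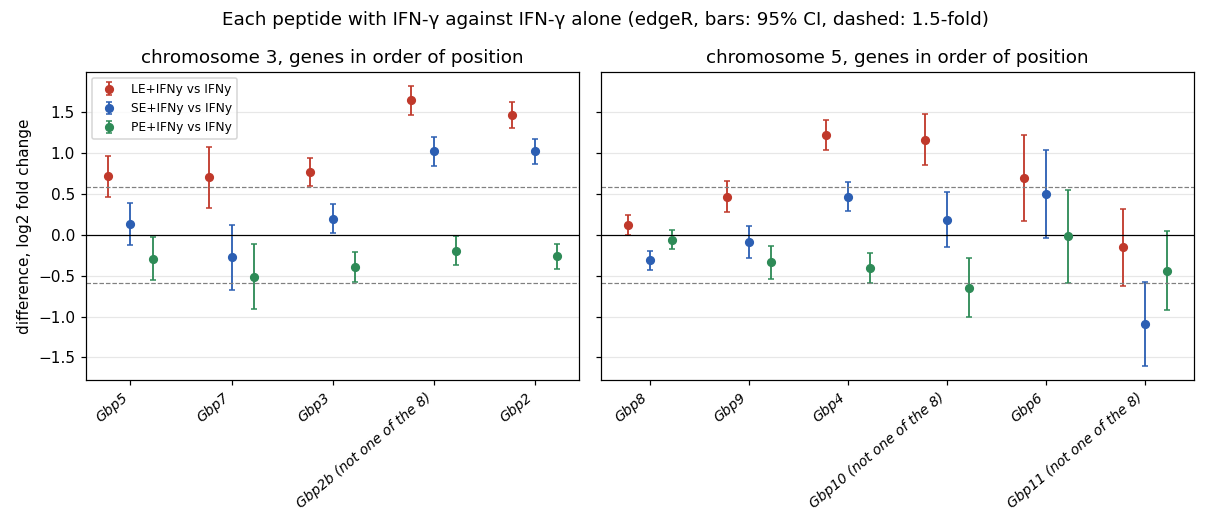
Log2 fold change of each Gbp gene for LE, SE and PE with IFN-γ against IFN-γ alone (points, 3 letter-labelled libraries per group, bars 95% confidence intervals), with genes in order along chromosomes 3 and 5 and dashed lines at a 1.5-fold change. With LE, Gbp2, Gbp2b, Gbp4 and Gbp10 lie highest and Gbp8 and Gbp11 near 0, and with PE every estimate is below 0.

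The macrophage markers were also higher with LE+IFN-γ (8579 to 9419 CPM summed) than with IFN-γ (7272 to 7925 CPM), and the fibroblast markers were at 1.11 to 1.18 against 0.283 to 0.613 CPM. Of these 4 genes Pdgfra alone could be tested and was called higher (log2 fold change 1.51), and 1 of the 4 was at 0 throughout each group. Their part in the results with LE was not tested.

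SE+IFN-γ was compared with IFN-γ in the same way. Of the 8 members 1 rose, 0 fell and 7 were not called, where 5.01% of 12720 genes were called higher, and the median log2 fold change was 0.17. The member was Gbp2, at 318, 264 and 302 CPM against 157, 135 and 151 CPM, with a log2 change of 1.02 (SE 0.07, 95% interval 0.86 to 1.18, edgeR adjusted p 1.63e-08). The groups did not overlap, and Gbp2b had a difference of similar size, 1.02 (SE 0.08, edgeR adjusted p 5.79e-08).

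Gbp4 with SE+IFN-γ, at 159, 130 and 173 CPM, was above all IFN-γ libraries, and its log2 difference of 0.47 (SE 0.09, edgeR adjusted p 0.000415) did not reach 1.5-fold. Gbp8 went the other way, at 95.2, 97.3 and 96.0 CPM, below all IFN-γ libraries, with a log2 difference of -0.31 (SE 0.06, edgeR adjusted p 0.000344), also under the minimum. The remaining 5 members had adjusted p-values of 0.0749 or more in edgeR, and Gbp7 and Gbp9 had estimates below 0. With SE+IFN-γ the share of Gbp2 in the family was 46.1%, the highest among the 8 letter-labelled groups. Pdgfra was called higher here too (1.65), with fibroblast markers at 0.788 to 1.84 CPM, and its part was not tested.

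PE+IFN-γ was compared with IFN-γ last. Of the 8 members 0 were called, where 0.629% of 12720 genes were, 6 had an unadjusted p under 0.05, and DESeq2 called 0. All 8 estimates were below 0, with a median of -0.31 against 0.00 over all genes. The differences for LE, SE and PE were all taken from the same 3 IFN-γ libraries. Gbp3 (-0.40, SE 0.09, edgeR adjusted p 0.0118), Gbp4 (-0.40, SE 0.09, adjusted p 0.0123), Gbp9 (-0.34, SE 0.09, adjusted p 0.0331) and Gbp2 (-0.27, SE 0.08, adjusted p 0.0347) passed the threshold on p without reaching 1.5-fold. The PE+IFN-γ libraries had 27.4, 29.8 and 27.3 CPM of Gbp3 and 88.0, 86.5 and 79.1 CPM of Gbp4, below all 3 IFN-γ libraries of each gene. Gbp7 (-0.51, SE 0.19, edgeR adjusted p 0.0901) was called lower without IFN-γ replicate 3 (-0.69) or without PE+IFN-γ replicate 2 (-0.70), and the members called were then 1. The summed level of the family was 390 ± 10.1 CPM (SD, n = 3), and that of the macrophage markers 6809 to 7043 CPM, both below those with IFN-γ alone.

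The 3 pairs of peptides were then compared at equal dose and time, with IFN-γ in both groups. LE against PE gave 7 members higher (background 12.7% higher), with all members but Gbp8 called, and with a median log2 difference of 1.09. Gbp2 differed by 1.73 (SE 0.08, 95% interval 1.57 to 1.89, edgeR adjusted p 4.35e-11) and Gbp8 by 0.18 (95% interval 0.06 to 0.30, edgeR adjusted p 0.0104). Gbp6 was called at 0.72 (SE 0.25, edgeR adjusted p 0.0197), but not with DESeq2 (adjusted p 0.0528) and not without LE+IFN-γ replicate 1, PE+IFN-γ replicate 1 or PE+IFN-γ replicate 3.

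LE against SE gave 2 members higher (background 3.31% higher), Gbp4 by 0.76 (SE 0.08, edgeR adjusted p 1.26e-05) and Gbp7 by 0.98 (SE 0.18, edgeR adjusted p 0.000637). The median log2 difference was 0.56, and 7 members had an adjusted p under 0.05, so that this count is set by the 1.5-fold minimum. Leaving out single libraries gave 2 to 5 members, where 435 to 692 of all genes were called. There were 5 without LE+IFN-γ replicate 2 and 4 without SE+IFN-γ replicate 1 or 3. Gbp3, Gbp5 and Gbp9 lay close to the minimum. Gbp8 differed by 0.43 (SE 0.06, edgeR adjusted p 4.08e-05), and Gbp6 did not pass on p, with a 95% interval of -0.30 to 0.69.

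SE against PE gave 3 members higher (background 5.25% higher), Gbp2 by 1.29 (SE 0.08, edgeR adjusted p 2.18e-09), Gbp4 by 0.87 (SE 0.09, adjusted p 8.06e-07) and Gbp3 by 0.60 (SE 0.09, adjusted p 3.58e-05). The call of Gbp3 lay at the fold minimum and was lost in 4 of 6 fits without a library, at 0.55 to 0.58. Gbp8 was lower with SE than with PE, by a log2 difference of -0.25 (SE 0.06, adjusted p 0.00205), under the minimum.

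Ordered by mean level, 5 members (Gbp2, Gbp3, Gbp4, Gbp5 and Gbp6) ran from LE+IFN-γ through SE+IFN-γ and IFN-γ down to PE+IFN-γ, and all 8 were highest with LE+IFN-γ. For Gbp2 and Gbp4 no neighbours in this order overlapped. For Gbp3 the libraries of SE+IFN-γ and IFN-γ overlapped, for Gbp5 those and the lowest pair did, and for Gbp6 only the lowest pair did. Gbp7 and Gbp9 had IFN-γ above SE+IFN-γ, with overlap between these. Gbp8 was the one member lowest with SE+IFN-γ, without overlap with PE+IFN-γ.

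Each peptide with IFN-γ was also compared with the same peptide alone (Model B). All 8 members rose with each peptide, where 19.1%, 15.1% and 12.1% of 12947 genes were called higher for LE, SE and PE. In these fits, Gbp4, Gbp5 and Gbp6 passed the filter on low counts only through libraries with IFN-γ. The median log2 fold changes were 6.34, 6.93 and 5.18. With Gbp6 at its bound for SE, where the peptide group had 0 counts, that median was 5.38. Gbp8 had the lowest value of the 8 with each peptide, at 2.33 (SE 0.10) for LE, 1.69 (SE 0.10) for SE and 2.20 (SE 0.10) for PE, and the highest values of any member were 10.76, 11.07 and 9.87.

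The interaction asked whether a peptide's difference with IFN-γ was unlike its difference without it, over all 24 letter-labelled libraries. With LE, 2 of 8 members were called, both higher (background 11.3% higher): Gbp2 at a log2 value of 1.52 (SE 0.35, edgeR adjusted p 0.00148) and Gbp7 at 1.47 (SE 0.43, edgeR adjusted p 0.00841). Gbp7 was the gene with lower values with LE alone, so its interaction combined a difference of -0.78 without IFN-γ, which was not called, with 0.70 in its presence. For SE 0 of 8 were called (background 7.96%), with 1 unadjusted p under 0.05, that of Gbp8, and 0 calls by DESeq2, and without SE replicate 2 Gbp2 was called. For PE 0 of 8 were called (background 0% of 13096 genes, 1073 of them with an unadjusted p under 0.05), with 0 unadjusted p under 0.05 among the members, and DESeq2 called 0 of the 8 and 0 of all genes. Gbp4, Gbp5 and Gbp6 had too few counts without IFN-γ for this test to be precise, with standard errors of 0.88 or more for LE.

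Other genes of the pathway were read from lists. The share called over all 12242 genes tested with IFN-γ alone was 18.1%. With IFN-γ alone, 8 of 9 immunity-related GTPases tested rose (median log2 fold change 3.18), as did all 13 other IFN-γ targets tested (median 3.05), and in the receptor and signalling list 6 rose and 1 fell of 12. Irf1 rose by 2.84 (SE 0.11, edgeR adjusted p 5.02e-09), and Ifngr2, a chain of the receptor, fell by 0.64 (SE 0.07, edgeR adjusted p 3.88e-05). Of inflammasome and pyroptosis genes, 3 of 7 rose, namely Casp1 (1.35), Casp4 (1.32) and Nlrp3 (0.84). Of 10 other dynamin-like GTPases Mx1 rose (4.33) and Dnm1 fell (-1.75). Of 10 genes of the ATG8 conjugation system, which brings GBPs to vacuoles, edgeR called 0 (8 with an unadjusted p under 0.05, DESeq2 0), and of 6 genes of CaaX prenylation also 0 (3 with an unadjusted p under 0.05, DESeq2 0).

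With LE+IFN-γ against IFN-γ, the other lists gave fewer calls, a difference that was not tested. Over all 12720 genes tested, 15.5% were called. Of 9 immunity-related GTPases 0 rose and 1 fell, Irgq, with a median of -0.04, where the 8 GBPs had 6 and 0.71. Iigp1, an effector at the vacuole, differed by -0.04 (SE 0.13, edgeR adjusted p 0.824) and Igtp by 0.27 (SE 0.11, edgeR adjusted p 0.0520). Of 13 other IFN-γ targets 4 rose, Cxcl10 (1.76), Cxcl9 (1.68), Cd274 (1.11) and Nos2 (0.91), with a list median of -0.05. In the signalling list Jak1 (0.78) and Socs3 (0.83) rose and Socs1 (-0.73), a feedback inhibitor, fell, while Irf1 (-0.40) stayed under 1.5-fold. Il1b (2.24), Atg12 (0.75) and Pggt1b (0.79), the last a subunit of the prenylating enzyme, were the single calls among 8 inflammasome, 10 ATG8 and 6 CaaX genes. Il1b was at a low level, with at most 1.49 CPM and 38 counts in any letter-labelled library. Of 10 other dynamin-like GTPases edgeR called 0 (4 with an unadjusted p under 0.05, DESeq2 0).

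With SE+IFN-γ, edgeR called 0 of 9 immunity-related GTPases (median -0.39, 7 with an unadjusted p under 0.05, DESeq2 0). Over all 12720 genes tested, 7.39% were called. Of 13 other targets Cxcl9 (1.75), Cxcl10 (1.37) and Cd274 (0.73) rose and Ciita (-0.65) fell, and of 12 signalling genes 0 rose and Irf1 (-0.64) fell. Mx2 (0.66) and Dnm1 (0.89) rose among 10 dynamin-like GTPases and Il1b (2.54), at the same low level, among 8 inflammasome genes. The ATG8 and CaaX lists had 0 calls (6 and 4 with an unadjusted p under 0.05, DESeq2 0). Of the 3 other GBPs in the test, Gbp2b rose and Gbp11, annotated as a polymorphic pseudogene, fell (-1.09, SE 0.24, edgeR adjusted p 0.00200).

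With PE+IFN-γ, edgeR called 0 genes of the immunity-related GTPase, dynamin-like, signalling, target, inflammasome, ATG8 and CaaX lists, where 3, 3, 2, 7, 1, 3 and 2 genes had an unadjusted p under 0.05, and DESeq2 called 0 in each. Over all 12720 genes tested, 0.629% were called. Of the other GBPs Gbp10 fell by 0.65 (SE 0.17, edgeR adjusted p 0.0264), and 73.5% of its 100-base windows also occurred in other genes.

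By likeness of pattern, 5 genes outside the family followed the mean log2(CPM + 1) of the 8 genes most closely over the 24 letter-labelled libraries, among 8483 genes with a mean of at least 10 CPM. These were Serpina3f (Pearson r 0.998), Sp140 (0.997), Slamf8 (0.996), Il18bp (0.996) and C1qc (0.995), correlations that rest mostly on the gap between libraries with and without IFN-γ. Over the 12 libraries with IFN-γ they were Impa1 (0.988), Gm20056 (0.987), Tfrc (0.986), Fcho2 (0.986) and Stat3 (0.983). The libraries share scaling and treatment, so these values are a description.

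In the HLA-labelled libraries, grouped as labelled, the family did not go with IFN-γ in the label. The summed level of the 8 genes was 1383 ± 110 CPM (SD, n = 3) in the libraries labelled LE and 1182 ± 127 CPM in those labelled PE, both without IFN-γ in the label, and 49.0 ± 3.17 CPM in those labelled IFN-γ and 50.7 ± 2.72 CPM in those labelled SE+IFN-γ. Those labelled LE+IFN-γ and PE+IFN-γ had 582 ± 27.1 and 702 ± 52.1 CPM, and PBS and SE had 56.9 ± 6.72 and 53.7 ± 6.81 CPM. Every library thus lay at 64.6 CPM or less or at 552 CPM or more. A direction in this series is one between libraries labelled so.

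The levels of single members in this series were as follows. Gbp8 led in the low libraries, at 36.6 to 48.8 CPM, where no other member passed 7.93 CPM. Among the high libraries Gbp8 had means of 143, 162, 152 and 163 CPM for LE, PE, LE+IFN-γ and PE+IFN-γ, while Gbp2 had means of 547, 420, 140 and 167 CPM and Gbp4 of 360, 283, 110 and 154 CPM. The libraries labelled LE and PE without IFN-γ thus had the highest Gbp2 and Gbp4 of the series and a mean Gbp8 no higher than that of the libraries labelled PE+IFN-γ, as levels with no test.

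**Figure D4:**
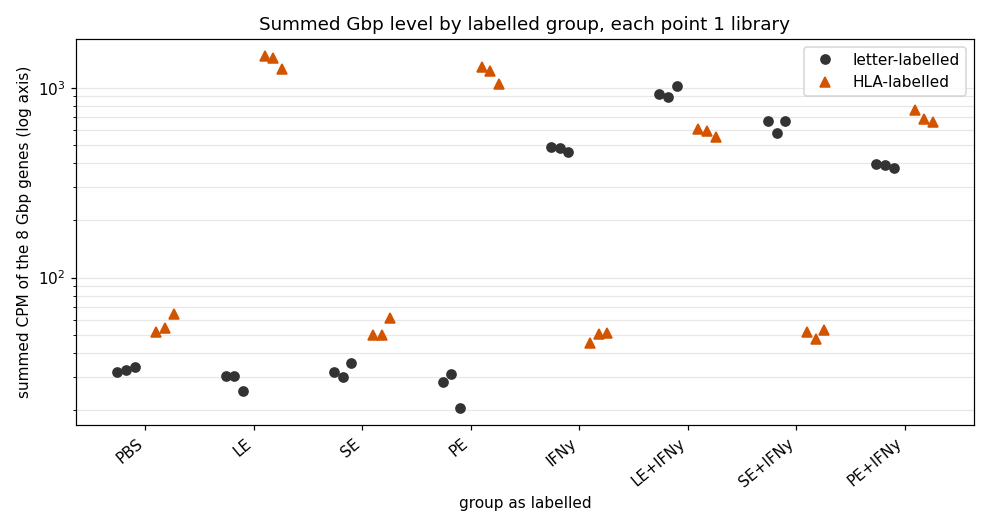
Summed CPM of the 8 Gbp genes (log axis) by labelled group, with 3 letter-labelled (circles) and 3 HLA-labelled (triangles) libraries per group. The letter-labelled libraries are high wherever the label has IFN-γ, whereas the HLA-labelled ones are high for LE, PE, LE+IFN-γ and PE+IFN-γ and low for PBS, SE, IFN-γ and SE+IFN-γ.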

How the data were processed

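RNA of 48 RAW264.7 libraries (stranded, poly(A)-selected, 100-base single-end reads) was measured by sequencing. The authors counted uniquely aligned reads per gene with featureCounts on the GENCODE M12 annotation of GRCm38, and the deposited values are raw counts, 1 column per library, with no normalization. Each of the 48 columns carried 1 label and 0 were left unmapped. Date-like names replaced 26 gene symbols, none a Gbp gene, and 0 lines named no gene. The 1128 pairs of libraries all differed beyond counting noise (lowest chi-square per degree of freedom 3.89).

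Counts were scaled by TMM, filtered with filterByExpr and tested with edgeR 4.0.16 (quasi-likelihood F test, two-sided, R 4.3.3, limma 3.58.1) in 5 fits of letter-labelled libraries, with p-values adjusted over all genes tested (Benjamini-Hochberg). A gene was called at an adjusted p under 0.05 with a fold change over 1.5. SEs were taken as the log2 fold change divided by the square root of F. CPM used total counts, log2 levels had 1 CPM added, and CPM per kb used exon lengths of GENCODE M21. A floor of 3 counts over a group replaced 0, and counting intervals (95%, exact) cover counting error only. DESeq2 1.42.0 and the settings under the closing section were alternatives. Python 3.11.15, scipy 1.17.1 and pandas 2.3.3 were used for the rest. The edgeR step was tested on simulated counts with known changes.

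The labels number replicates, and deviations of same-numbered libraries correlated above 0.1 in all 3 pairs for IFN-γ against PBS (r 0.177, 0.178 and 0.202) and for LE+IFN-γ against IFN-γ (0.206, 0.128 and 0.189) over 11674 genes, but in no other comparison. The HLA-labelled libraries, of which 12 of 24 went against their labels on 15 IFN-γ targets, served as a check and entered only the alternatives.

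The members, the pathway and marker lists and the comparisons were chosen with earlier results of these data known. The named genes are all 8 members in each comparison, the other Gbp genes, list genes that were called or that define the pathway, and the 5 genes with the highest correlation. Promoters came from RefSeq, GRCm38.p6, and were searched on both strands.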

Additional observations from a re-analysis of the deposited data

Results flagged for a closer look

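In the letter-labelled libraries, the difference made by LE with IFN-γ was unlike its difference without IFN-γ for Gbp2, at a log2 interaction of 1.52, and for Gbp7, at 1.47 (edgeR, adjusted p 0.00148 and 0.00841, 2 of 8 members, where 11.3% of all genes were called higher). Every LE+IFN-γ library lay above every IFN-γ library for Gbp2, whereas 1 library of each group overlapped for Gbp7.

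The HLA-labelled libraries hold a Gbp signal where the label has no IFN-γ. The mean summed CPM of the 8 genes was 1383 in the 3 libraries labelled LE and 1182 in the 3 labelled PE, against 56.9 in those labelled PBS. On 15 IFN-γ targets, 12 of the 24 HLA-labelled libraries went against their labels, among them all those labelled LE and PE. What these libraries received was not tested.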

How the results depend on the processing

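With DESeq2 size factors or the DESeq2 test, none of the 16 counts of Gbp genes called moved by more than 1.5 times. The block on replicate number left 8 members called for IFN-γ against PBS and 6 for LE+IFN-γ against IFN-γ, the comparisons whose numbers pair, and changed 1 call elsewhere: Gbp7 for PE against PBS (log2 fold change -1.21, edgeR adjusted p 0.0263, 1 member called). That count was also 1 with no filter on low counts (-1.15) and with 1 fit of all 8 groups (-1.12). Of all genes tested for PE against PBS, 4.14% were called with the block, 2.17% with no filter and 3.77% in that 1 fit. With no fold change minimum, 3 of 8 members were called for SE+IFN-γ (33.4% of all genes tested) and 4 for PE+IFN-γ (1274 of 12720 genes) against IFN-γ, 7 for LE against SE (35.6%) and 5 for SE against PE (34.4%) with IFN-γ, and 1 for the SE interaction (19.8%).

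Leaving out 1 library gave 0 to 1 members for PE against PBS, where 78 to 1002 of all genes were called. Against IFN-γ it gave 3 to 6 for LE+IFN-γ (1775 to 2201 of all genes) and 0 to 1 for PE+IFN-γ (18 to 157). With IFN-γ in both groups, LE against SE gave 2 to 5 (435 to 692) and LE against PE 6 to 7 (2366 to 2938). SE against PE gave 2 to 3 (791 to 1072) and the SE interaction 0 to 1 (795 to 1224). The other 9 counts did not move. Of the 858 fold changes of members in these fits, 26 had the other sign, and none of these was called. They lay in the comparisons of a peptide with PBS, in PE+IFN-γ against IFN-γ (Gbp6) and in the interactions.

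The choice of label series changed these calls as follows, with the share of all genes tested that were called in parentheses. With the HLA-labelled libraries alone, as labelled, members called were 0 of 5 tested for IFN-γ against PBS (0%), 8 of 8 for LE (28.6%) and 8 for PE (25.5%) against PBS, and 0 for SE+IFN-γ (0.0709%) and 8 for PE+IFN-γ (13.4%) against IFN-γ. They were 8 for LE against SE (15.8%), 0 for LE against PE (0.135%) and 8, all lower, for SE against PE (14.5%). They were 6, all lower, for LE+IFN-γ against LE (17.8%), 0 for SE+IFN-γ against SE (0.145%), 4, all lower, for PE+IFN-γ against PE (14.7%), 2, both lower, for the LE interaction (16.9%) and 1, lower, for the PE interaction (14.5%). For the 4 counts of 0, in that order, 2, 3, 4 and 0 members had an unadjusted p under 0.05.

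The HLA-labelled libraries were grouped as labelled, although 12 of the 24 went against their labels on the 15 IFN-γ targets. In them, 81 of 116 fold changes of members had the other sign than in the letter-labelled ones. They were 5 of 5 members with IFN-γ, 3, 3 and 4 of 5 with LE, SE and PE against PBS, 5 of 8 with SE+IFN-γ and 8 of 8 with PE+IFN-γ against IFN-γ, 8 for LE against PE, 7 for SE against PE, 8, 6 and 8 for LE, SE and PE with against without IFN-γ (medians -1.18, -0.15 and -0.70), and 6, 5 and 5 for the LE, SE and PE interactions. No member turned in the other comparisons. Among the fold changes given singly in the text, those that turned were Gbp2 (-0.51), Gbp3 (-0.89), Gbp7 (-0.76), Gbp8 (-0.12) and Gbp9 (-0.42) with IFN-γ. Gbp7 turned with LE (4.07) and PE (4.01) against PBS, and Gbp4 (-2.08) and Gbp8 (0.0291) with SE+IFN-γ. With PE+IFN-γ, Gbp2 (7.93), Gbp3 (6.26), Gbp4 (9.18), Gbp7 (4.44) and Gbp9 (4.05) turned. Of those given singly, Gbp2 (-0.26), Gbp6 and Gbp8 (-0.12) turned for LE against PE. For SE against PE, Gbp2 (-7.29), Gbp3 (-5.32) and Gbp4 (-11.25) did. With a peptide and IFN-γ against that peptide alone, Gbp8 was at -0.0324 (LE), -0.0320 (SE) and -0.0320 (PE). The LE interactions of Gbp2 and Gbp7 were -1.58 and -0.0103.

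With both series together, again grouped as labelled, 0 members were called in any comparison. Few genes of any kind were called (0% to 1.89% of those tested), and 0 to 8 members had an unadjusted p under 0.05. All 8 did for LE and for PE against PBS, at median log2 fold changes of 6.82 and 6.70. Of 116 fold changes of members, 47 had the other sign, in 3, 3 and 4 of 5 members with LE, SE and PE against PBS, 8 of 8 with PE+IFN-γ against IFN-γ, 2 for LE against PE, 6 for SE against PE, 5 each for LE and PE with against without IFN-γ, and 6, 1 and 4 for the LE, SE and PE interactions. Given singly in the text were Gbp7 against PBS with LE (3.80) and PE (3.74), and Gbp2 (1.01), Gbp3 (1.19), Gbp4 (1.13), Gbp7 (2.25) and Gbp9 (1.55) with PE+IFN-γ. So were Gbp3 (-0.96) and Gbp4 (-0.67) for SE against PE, and the interactions of Gbp2 (-6.63) and Gbp7 (-1.63).

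With a term for the series, 0 members were called for IFN-γ against PBS (0.31% of all genes tested), SE+IFN-γ against IFN-γ (0.0501%), LE against PE (2.68%), LE (4.63%), SE (0.0279%) and PE (6.15%) with against without IFN-γ and the LE interaction (0.00686%). Called were 7 for LE (8.14%) and 7 for PE (6.76%) against PBS, 3 for LE against SE (3.6%) and 2, both lower, for SE against PE (3.14%). Of 116 fold changes, 41 had the other sign, in 3, 1 and 4 of 5 members with LE, SE and PE against PBS, 8 of 8 with PE+IFN-γ against IFN-γ, 6 for LE against PE, 7 for SE against PE, 1 for PE with against without IFN-γ, and 6, 1 and 4 for the interactions. Gbp7 was then at 2.52 with LE and 2.45 with PE. Gbp2 (3.56), Gbp3 (2.42), Gbp4 (3.54), Gbp7 (2.08) and Gbp9 (1.82) turned with PE+IFN-γ, and Gbp2 (-0.0268) and Gbp8 (-0.0179) for LE against PE. Gbp2 (-2.60), Gbp3 (-2.15) and Gbp4 (-3.10) turned for SE against PE, and the interactions were -6.62 for Gbp2 and -1.89 for Gbp7. The cause was not tested. Depth limits Gbp4, Gbp5 and Gbp6 without IFN-γ, at 6 counts or fewer per library, and Gbp2 and Gbp3 were also low there.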
